A study of Mus musculus with 6 samples.

Results

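Amino acid transporters of 6 solute carrier families (Slc3, Slc6, Slc7, Slc36, Slc38 and Slc43) were examined in mouse prostate tumors and normal prostate. Genes were taken by their symbol alone, as every row of the count table whose symbol is Slc3a, Slc6a, Slc7a, Slc36a, Slc38a or Slc43a followed by a number, and 58 of the 24091 genes in the table matched, of which 57 are described. Among the 57, 54 were transporter genes and 3 were genes named for lying opposite a transporter (Slc36a1os, Slc6a19os and Slc7a6os). The Slc1 family of glutamate and neutral amino acid transporters was left out. RNA was sequenced from 6 libraries in 3 groups of 2. The 12Q group was prostate tumor of mice with a humanised X-linked allele that encodes a polyglutamine tract of 12 glutamines, and the 48Q group was prostate tumor of mice with the same allele at 48 glutamines. Both tumor groups also carried 1 conditional exon 3 allele of Ctnnb1 (β-catenin) beside 1 wild-type allele, and the PB-Cre4 transgene, in which a probasin promoter directs Cre expression to the epithelial cells of the prostate. Deleting exon 3 stabilises β-catenin, the effector of canonical Wnt signalling. WT stands for normal prostate from wild-type mice, which had none of these alleles. No tumor-free group carried them, so their effect and that of the tumor cannot be told apart. Whether the 2 replicates of a group are separate animals is not stated in the labels. The p-values therefore reflect how far these libraries vary, which could be technical variation alone.

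Cells take up, export and exchange amino acids through these carriers, because most amino acids do not cross membranes unaided. Slc3 proteins are heavy chains that bring Slc7 light chains to the cell surface, where the pair exchanges 1 amino acid for another, while Slc7 cationic transporters, Slc38, Slc36 and Slc6 proteins work without a heavy chain, many of them coupled to sodium or protons. Leucine, arginine and glutamine that enter through them feed protein synthesis and activate mTORC1, and when amino acids run short the kinase Gcn2 and the transcription factor ATF4 raise several of the transporter genes. The prostate is known for its secretion and for polyamine synthesis from arginine and ornithine, and LAT3 (Slc43a1) was first described as a gene of high expression in prostate cancer.

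Library totals ranged from 26416181 to 28559546 counts, and 15050 genes had enough counts to be tested. The unit of level is CPM (from edgeR, with each library's counts scaled to its total after TMM, a correction for a few abundant genes), and 3 counts in a library corresponded to 0.0856 to 0.156 CPM. In WT, a single secretory gene took 17.4% and 22.8% of all counts, and TMM factors were 0.708 and 0.811 there against 1.02 to 1.24 in tumors. The WT libraries stood apart from each other in some stress-response genes: Ddit3 was 15.02-fold and Trib3 6.51-fold higher in WT replicate 1 than in WT replicate 2. Luminal epithelial markers were detected in all 6 libraries, with summed levels of 40968 and 22941 CPM in WT, 10262 and 7811 CPM in 12Q, and 7823 and 6174 CPM in 48Q. By the edgeR test, 1 of the 8 luminal markers was lower in 12Q than in WT and 0 were lower in 48Q. Their median log2 fold change against WT was -0.52 in 12Q and -1.16 in 48Q. Smooth muscle markers summed to 2341 and 5921 CPM in WT, 54.6 and 53.5 CPM in 12Q, and 873 and 313 CPM in 48Q, with 7 of 7 lower in 12Q than in WT (edgeR, adjusted p under 0.05). Basal epithelial markers summed to 265 and 232 CPM in WT, 1.59 and 5.14 CPM in 12Q, and 265 and 223 CPM in 48Q, and 5 of 5 were lower in 12Q than in WT. Macrophage markers summed to 109.95 and 77.2 CPM in WT, 288 and 447 CPM in 12Q, and 489.8 and 503 CPM in 48Q, and 6 of 7 were higher than in WT in each tumor group. In such bulk samples, fewer cells of a type and less RNA per cell cannot be told apart.

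Against WT, more of the tested transporter genes passed the test in 12Q tumors than in 48Q tumors, and so did more of all genes. In 12Q against WT, 15 of the 34 tested genes passed the threshold (edgeR's quasi-likelihood test, Benjamini-Hochberg adjusted p under 0.05 over all 15050 genes). Among all tested genes the share was 22.4%. Of these, 4 were higher (Slc7a7, Slc43a2, Slc6a14 and Slc6a6) and 11 were lower (Slc7a1, Slc7a4, Slc7a12, Slc38a1, Slc38a10, Slc36a4, Slc43a1, Slc43a3, Slc6a2, Slc6a4 and Slc6a15), beside 11.2% higher and 11.2% lower among all genes. In 48Q tumors, 1 of the 34 passed against WT, beside 5.18% of all genes. This was Slc38a10, which was lower, where 3.95% of all genes were higher and 1.23% lower. Between the tumors, 1 of the 34 passed, beside 4.17% of all genes. It was Slc6a2, lower in 12Q, where 1.01% of all genes were higher and 3.16% lower. The median log2 fold change of the 34 was -0.74 in 12Q against WT, 0.21 in 48Q against WT and -0.48 in 12Q relative to 48Q, and over all genes it was -0.01, 0.02 and 0.00. Both 12Q libraries were above both WT libraries for 6 of the 34 genes and below them for 15, beside 30.1% and 30.4% of all genes. Both 48Q libraries were above both WT libraries for 15 and below them for 8, beside 34.7% and 29.8%. Groups of 2 that did not overlap, in either direction, were found for 21, 23 and 26 of the 34 in the 3 comparisons, beside 60.5%, 64.5% and 66.8% of all genes. A gene that was counted mainly in 1 group enters the test through that group, so these counts and medians describe the tested genes and not all 57. Scaling by library totals moved the median of all genes to 0.48, 0.71 and -0.19, and then 6 transporter genes were higher and 6 lower in 12Q than in WT, and 6 were higher and 1 lower in 48Q than in WT. The calls below are therefore relative to the TMM scale. Leaving out 1 library lowered the count in 12Q against WT to between 6 (without 12Q replicate 2 or 48Q replicate 1) and 11 (without 12Q replicate 1), with 7 without 48Q replicate 2 and 9 without either WT library. In 48Q against WT the edgeR count was 0 without 48Q replicate 1, 48Q replicate 2 or WT replicate 1 (7, 8 and 12 at an unadjusted p under 0.05) and 5 without WT replicate 2, and in 12Q relative to 48Q it was 0 without 12Q replicate 2 (10 at an unadjusted p under 0.05) and 1 or 2 without any other library. The DESeq2 Wald test called 16, 8 and 8 of the 34 in the 3 comparisons. In 48Q against WT and between the tumors it also called more of all genes than edgeR did, so the edgeR shares do not apply to these counts. Of the 3 comparisons, 2 share the same WT libraries and each tumor group also enters 2 of them.

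**Figure D1:**
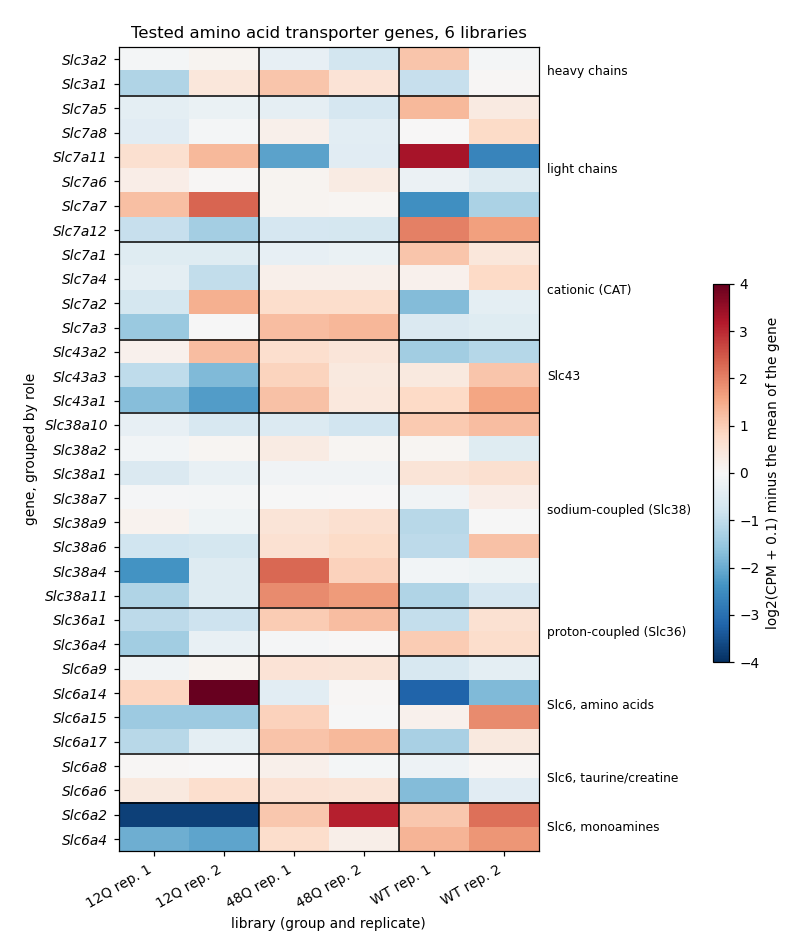
Level of the 33 tested transporter genes (rows, grouped by role) in the 6 libraries (columns), as log2(CPM + 0.1) minus the mean of the gene, red above and blue below that mean. Slc6a2 is blue in the 12Q libraries, and Slc7a11 is at its highest in WT replicate 1 (554 CPM) and its lowest in WT replicate 2 (8.84 CPM).

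The levels of the heavy chain Slc3a2 (4F2hc or CD98, chr19:8706882-8723369, minus strand) and of its leucine-transporting partner Slc7a5 (LAT1, chr8:121881146-121907686, minus strand) were not higher in the tumors than in WT. Slc3a2 was measured at 433 and 188 CPM in WT, 188 and 218 CPM in 12Q, and 160.1 and 121 CPM in 48Q. The 48Q libraries were below both WT libraries, while the 12Q libraries lay close to WT replicate 2. Against WT, Slc3a2 had a log2 fold change of -0.61 ± 0.42 (SE, edgeR adjusted p = 0.322) in 12Q. In 48Q, Slc3a2 had one of -1.14 ± 0.42 (SE, edgeR adjusted p = 0.16). Slc7a5 was measured at 554 and 289.9 CPM in WT, 173 and 188 CPM in 12Q, and 174 and 142 CPM in 48Q, so all 4 tumor libraries were below both WT libraries. Against WT, Slc7a5 had a log2 fold change of -1.22 ± 0.36 (SE, edgeR adjusted p = 0.0543) in 12Q. In 48Q, Slc7a5 had one of -1.42 ± 0.36 (SE, edgeR adjusted p = 0.0735), neither past the threshold. The direction of Slc3a2 in 12Q rested on WT replicate 1: without that library its log2 fold change was 0.11 in 12Q and -0.42 in 48Q. For Slc7a5, both comparisons passed without WT replicate 2 (adjusted p of 0.0243 and 0.0409) and in the DESeq2 Wald test (0.0102 and 0.0042), and on library totals its log2 fold change in 48Q was -0.70. The second large neutral amino acid exchanger, Slc7a8 (LAT2), was at 89.6 and 149.9 CPM in WT, 63.8 and 83.9 CPM in 12Q, and 101 and 65.7 CPM in 48Q, with a log2 fold change of -0.70 ± 0.35 (SE, edgeR adjusted p = 0.195) in 12Q against WT. Slc7a6 (y+LAT2) was at 24.98 and 20.7 CPM in WT, 35.6 and 30.7 CPM in 12Q, and 31.6 and 36.8 CPM in 48Q, and both tumor groups lay above WT without passing the test. The other heavy chain, Slc3a1 (rBAT, which serves cystine uptake in kidney), was rare, at 0.156 and 0.398 CPM in WT, 0.111 and 0.557 CPM in 12Q, and 0.933 and 0.599 CPM in 48Q, with 3 counts in 12Q replicate 1 and in WT replicate 1 and 9 to 31 in the other libraries, and its usual partner Slc7a9 had 0 counts in all 6 libraries.

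Slc7a7 (y+LAT1, chr14:54369442-54417702, minus strand), a light chain that exports arginine and lysine in exchange for neutral amino acids and is known from kidney, intestine and macrophages, was higher in 12Q tumors. It was measured at 0.939 and 2.26 CPM in WT, 13.1 and 28.2 CPM in 12Q, and 6.02 and 5.87 CPM in 48Q. The 3 groups did not overlap, with 12Q highest and WT lowest. In 12Q against WT its log2 fold change was 3.68 ± 0.62 (SE, edgeR adjusted p = 0.0119), a 12.8-fold difference. This call held in all 12 alternatives, with a log2 fold change between 3.03 (without 12Q replicate 2) and 4.45 (without WT replicate 2). In 48Q against WT the log2 fold change was 1.89 ± 0.58 (SE, edgeR adjusted p = 0.111), and in 12Q relative to 48Q it was 1.79 ± 0.56 (SE, edgeR adjusted p = 0.115). Macrophage markers were also higher in both tumor groups than in WT (6 of 7 in each), with a median log2 fold change of -0.19 in 12Q relative to 48Q, and their part in the Slc7a7 result was not tested. Exons of Slc7a7 overlap those of Oxa1l on the opposite strand, and the strand setting of the counting is not given in the sources used here. Oxa1l was at 73.96 and 67.3 CPM in WT, 119 and 78.4 CPM in 12Q, and 56.7 and 61.7 CPM in 48Q, with a log2 fold change of 0.49 in 12Q against WT (edgeR adjusted p = 0.22). Slc7a12, a light chain for small neutral amino acids (chr3:14480699-14505818, plus strand), was lower in 12Q than in WT and rare throughout, at 0.939 and 0.707 CPM in WT, 0.037 and 0 CPM in 12Q, and 0.0602 and 0.057 CPM in 48Q. The 12Q libraries together held 1 count, and the ratio of WT to 12Q was 48.3 (exact 95% interval 8.1 to 1962, counting error only, edgeR adjusted p = 0.0206). The Slc7a12 call was lost when 12Q replicate 2, 48Q replicate 1, 48Q replicate 2 or WT replicate 1 was left out (adjusted p from 0.0579 to 0.0726), and the ratio was 21.9 without 12Q replicate 2 and at least 8.57 without 12Q replicate 1. In 48Q against WT its log2 fold change was -3.71 ± 0.90 (SE, edgeR adjusted p = 0.0685).

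Slc7a11 (xCT, chr3:50364936-50443613, minus strand), whose libraries varied widely within WT, is the light chain that imports cystine in exchange for glutamate and so supplies glutathione synthesis. It was measured at 554 and 8.84 CPM in WT, 88.4 and 138 CPM in 12Q, and 12.6 and 40.9 CPM in 48Q. The WT libraries were the highest and the lowest of the 6 and differed 62.6-fold, while both 12Q libraries lay above both 48Q libraries. No comparison passed the test: the log2 fold change of Slc7a11 was -1.31 ± 1.47 (SE, edgeR adjusted p = 0.548) in 12Q and -3.39 ± 1.59 (SE, edgeR adjusted p = 0.243) in 48Q against WT. Relative to 48Q, Slc7a11 had one of 2.08 ± 1.51 (SE, edgeR adjusted p = 0.41) in 12Q. Without WT replicate 1 both tumor values turned positive, to 3.68 in 12Q (edgeR adjusted p = 0.0612) and 1.59 in 48Q (edgeR adjusted p = 0.369), and without WT replicate 2 they were -2.29 and -4.38. Slc7a11 is a textbook target of ATF4. Some genes of the stress-response list also stood high in WT replicate 1, whereas others, such as Sesn2, Ddit4 and Nupr1, did not. The part of ATF4 in the Slc7a11 values was not tested. Atf4 itself was at 721 and 244 CPM in WT, 97.9 and 181 CPM in 12Q, and 152 and 131 CPM in 48Q. Ddit3, a stress-induced transcription factor, was at 252 and 16.8 CPM in WT, 11.3 and 10.2 CPM in 12Q, and 18.6 and 9.47 CPM in 48Q, so it stood high in WT replicate 1 alone. Asns, the asparagine synthetase that ATF4 induces, was at 615 and 272 CPM in WT, 73.6 and 59.1 CPM in 12Q, and 44.7 and 37.1 CPM in 48Q, with both WT libraries above all tumor libraries. In WT replicate 1, 14 of the 33 stress-response genes with a value and 2 of the 32 tested transporter genes with a value (Slc7a11 and Slc3a2) were at least 2-fold above WT replicate 2, beside 6.4% of all genes with counts in both. Markers of squamous keratinizing epithelium also differed between the WT libraries, with summed levels of 229 and 6.5 CPM in WT, 203 and 158 CPM in 12Q, and 79.04 and 59.6 CPM in 48Q and Sprr1b and Cnfn at 0 in WT. Of these 8 markers, 4 were higher and 1 lower in 12Q and 3 were higher in 48Q than in WT. Their median log2 fold change against WT was 5.02 in 12Q and 3.63 in 48Q, so the summed levels do not describe most of these markers. The part of the squamous markers in the Slc7a11 values was not tested.

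The stretch of 250 bases before the RefSeq start of Slc7a11 (GRCm38.p6, chr3:50443614-50443863, minus strand) is shown because it holds the motif TGATGNAA, the composite site of C/EBP and ATF factors, 2 times, once on each strand (capitals), at 66 to 59 and at 47 to 40 bases before the start. The second stretch is that of Slc7a7 (chr14:54417703-54417952, minus strand), which holds the motif 1 time, 243 to 236 bases before the start. Another Slc7a7 window (chr14:54417945-54418194), before a start 242 bases farther upstream, holds it 1 time as well, 141 to 134 bases before that start, and is not shown.
Slc7a11: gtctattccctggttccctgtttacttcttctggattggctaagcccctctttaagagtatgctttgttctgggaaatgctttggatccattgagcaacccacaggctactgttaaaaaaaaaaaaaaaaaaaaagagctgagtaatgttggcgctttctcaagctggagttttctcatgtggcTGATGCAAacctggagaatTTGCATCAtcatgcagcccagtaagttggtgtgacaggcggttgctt
Slc7a7: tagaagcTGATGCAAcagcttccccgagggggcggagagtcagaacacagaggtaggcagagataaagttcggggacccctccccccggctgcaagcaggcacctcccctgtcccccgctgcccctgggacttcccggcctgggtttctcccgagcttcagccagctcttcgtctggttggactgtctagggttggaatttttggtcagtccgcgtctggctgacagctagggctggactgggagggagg
Over both strands, 3.45% of all 32851 such windows in the RefSeq table hold TGATGNAA, and 3 of the 35 windows of the tested genes did. Among the 23 tested genes with a window, Slc7a11 and Slc7a7 were those that held it. A match is a description of the letters and not a bound site. The 2 genes stood at opposite ends in WT replicate 1, where Slc7a7 was at its lowest and Slc7a11 at its highest. In the other libraries both genes were highest in 12Q, lower in 48Q and lowest in WT replicate 2. Whether the 2 genes share a control was not tested.

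**Figure D2:**
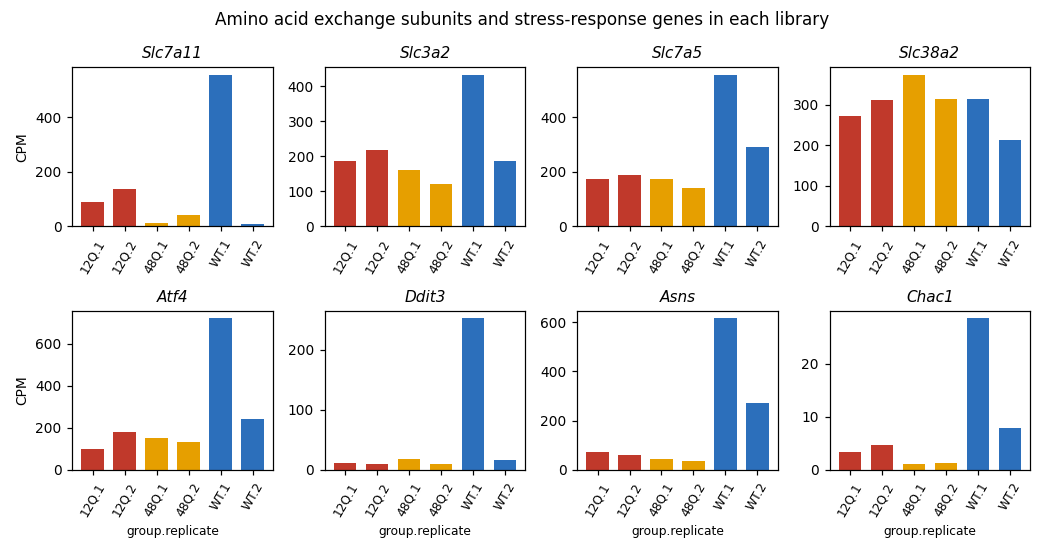
CPM in each library (bars, linear axis from 0, 12Q red, 48Q orange, WT blue) for 3 exchanger subunits, the glutamine transporter Slc38a2 and 4 stress-response genes. Slc7a11, Atf4 and Ddit3 are highest in WT replicate 1 (554, 721 and 252 CPM), whereas Slc38a2 lies between 213 and 373 CPM in all 6 libraries.

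Of the cationic amino acid transporters, which carry arginine, lysine and ornithine, Slc7a1 and Slc7a4 were lower in 12Q tumors than in WT, and no member was higher in either tumor group by the test. Slc7a1 (CAT1, chr5:148327410-148399904, minus strand), the common arginine uptake route of dividing cells, was measured at 589.6 and 371 CPM in WT, 196 and 194 CPM in 12Q, and 220.5 and 230.1 CPM in 48Q. All 4 tumor libraries were below both WT libraries, and the tumors spanned a narrow range. Against WT, Slc7a1 had a log2 fold change of -1.30 ± 0.30 (SE, edgeR adjusted p = 0.0289) in 12Q. In 48Q, Slc7a1 had one of -1.09 ± 0.30 (SE, edgeR adjusted p = 0.086). Slc7a1 lost its 12Q call when 12Q replicate 1, 12Q replicate 2, 48Q replicate 1, 48Q replicate 2 or WT replicate 1 was left out (adjusted p from 0.053 to 0.0901), on library totals (0.0597) and with only the compared groups in the fit (0.0813). Slc7a4 (chr16:17572018-17576671, minus strand), a relative for which no amino acid transport has been established, was at 66.04 and 100.3 CPM in WT, 43.99 and 29.4 CPM in 12Q, and 66.7 and 66.7 CPM in 48Q. The 12Q libraries were the lowest and did not overlap the other 4, with a log2 fold change of -1.18 ± 0.31 (SE, edgeR adjusted p = 0.0394) against WT. Slc7a4 lost this call when 12Q replicate 2, 48Q replicate 1, 48Q replicate 2 or WT replicate 2 was left out (adjusted p from 0.0904 to 0.121), on library totals (0.136), with a replicate block (0.0525) and with only the compared groups in the fit (0.0859). Its exons overlap P2rx6 on the opposite strand, which was at 1.04 and 4.78 CPM in WT, 0.074 and 0.898 CPM in 12Q, and 1.87 and 2.02 CPM in 48Q. Slc7a2 (CAT2), the carrier known for feeding arginine to nitric oxide synthase and arginase in activated macrophages, was at 3.34 and 8.58 CPM in WT, 6.96 and 30.9 CPM in 12Q, and 18.7 and 18.6 CPM in 48Q, and its 12Q libraries differed by more than those of the other groups. Slc7a3 (CAT3) was rare, at 0.156 and 0.177 CPM in WT, 0.037 and 0.279 CPM in 12Q, and 0.813 and 0.856 CPM in 48Q.

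The 250 bases before an internal RefSeq start of Slc7a1 (GRCm38.p6, chr5:148392816-148393065, minus strand) are shown because both tumor genotypes carry stabilised β-catenin, whose partners of the TCF/LEF family bind the core CTTTGA, and this window holds that core 3 times over both strands (capitals, TCAAAG on the opposite strand). That start lies 7089 bases inside the gene as annotated above, and the window at the gene's 5′ end does not hold the core.
Slc7a1: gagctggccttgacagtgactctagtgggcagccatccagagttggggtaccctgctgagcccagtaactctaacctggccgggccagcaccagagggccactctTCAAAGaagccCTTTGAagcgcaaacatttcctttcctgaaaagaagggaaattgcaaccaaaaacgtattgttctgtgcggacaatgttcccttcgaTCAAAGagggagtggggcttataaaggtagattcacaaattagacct
The core is found in 13.8% of all windows, and 7 of the 35 windows of the tested transporter genes held it (in Slc38a10, Slc38a9, Slc3a1, Slc3a2, Slc6a4, Slc7a1 and Slc7a7). Of these genes, Slc7a7 was higher and Slc7a1, Slc38a10 and Slc6a4 were lower in 12Q than in WT. The E-box CACGTG stood in 3 windows (Slc36a1, Slc38a7 and Slc43a1; 6.02% of all windows), and the androgen response half-site AGAACA in 6 windows (of Slc36a1, Slc38a4, Slc7a1, Slc7a11 and Slc7a7; 16.1% of all windows).

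All 3 genes of the Slc43 family passed in 12Q against WT, in opposite directions. Slc43a2 (LAT4, chr11:75531694-75577572, plus strand), a uniporter for leucine, phenylalanine and other large neutral amino acids, was at 7.2 and 8.67 CPM in WT, 21.5 and 44.9 CPM in 12Q, and 30.3 and 26.9 CPM in 48Q. All 4 tumor libraries were above both WT libraries. Against WT, Slc43a2 had a log2 fold change of 2.07 ± 0.41 (SE, edgeR adjusted p = 0.0188) in 12Q. In 48Q, Slc43a2 had one of 1.85 ± 0.40 (SE, edgeR adjusted p = 0.0549). Slc43a2 lost the 12Q call when WT replicate 1 or WT replicate 2 was left out (adjusted p from 0.0615 to 0.076), and its log2 fold change was 1.44 without 12Q replicate 2. The 48Q value passed in some alternatives, among them the fit without 12Q replicate 1 (adjusted p = 0.0245 in edgeR) and library totals (0.0283, with a log2 fold change of 2.53). Slc43a1 (LAT3, chr2:84839408-84863586, plus strand), the leucine uniporter first described in prostate cancer, was at 1.72 and 3.05 CPM in WT, 0.222 and 0.124 CPM in 12Q, and 2.29 and 1.31 CPM in 48Q. Both 12Q libraries were close to the level of 3 counts and below the other 4, whereas 48Q and WT overlapped. Against WT, Slc43a1 had a log2 fold change of -3.77 ± 0.73 (SE, edgeR adjusted p = 0.018) in 12Q. Relative to 48Q, Slc43a1 had one of -3.36 ± 0.72 (SE, edgeR adjusted p = 0.0562) in 12Q, and the first call was lost when 12Q replicate 2 or 48Q replicate 1 was left out (adjusted p from 0.0518 to 0.0717). Slc43a3 (chr2:84936646-84958509, plus strand), which carries purine nucleobases, was at 9.23 and 15.03 CPM in WT, 3.37 and 1.98 CPM in 12Q, and 12.98 and 9.21 CPM in 48Q, again with both 12Q libraries below all others. Against WT, Slc43a3 had a log2 fold change of -2.18 ± 0.48 (SE, edgeR adjusted p = 0.0252) in 12Q. Relative to 48Q, Slc43a3 had one of -2.05 ± 0.48 (SE, edgeR adjusted p = 0.0635) in 12Q. Slc43a3 lost the first call when 12Q replicate 2, 48Q replicate 1, 48Q replicate 2 or WT replicate 2 was left out (adjusted p from 0.0587 to 0.0804) and with only the compared groups in the fit (0.064). Basal epithelial markers (5 of 5) and fibroblast markers (3 of 7, with Dpt at 0 in 12Q) were also lower in 12Q than in WT, with summed fibroblast levels of 629 and 726 CPM in WT, 159.9 and 463 CPM in 12Q, and 1089 and 972 CPM in 48Q, and their part in these results was not tested.

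Among the sodium-coupled neutral amino acid transporters (SNATs), Slc38a10 was lower in both tumor genotypes and Slc38a1 in 12Q, and 6 of the 8 tested genes did not pass in 12Q against WT. Slc38a10 (chr11:120103951-120151351, minus strand), whose protein sits in internal membranes and carries glutamine and other amino acids, was measured at 595 and 673 CPM in WT, 229 and 182 CPM in 12Q, and 194 and 168 CPM in 48Q. All 4 tumor libraries were below both WT libraries by a wide gap. Against WT, Slc38a10 had a log2 fold change of -1.62 ± 0.27 (SE, edgeR adjusted p = 0.0117) in 12Q. In 48Q, Slc38a10 had one of -1.81 ± 0.27 (SE, edgeR adjusted p = 0.0256), which is 3.08-fold and 3.5-fold lower. The 12Q call held in all 12 alternatives, while the 48Q call was lost when 48Q replicate 1, 48Q replicate 2 or WT replicate 1 was left out (adjusted p from 0.0887 to 0.257), and on library totals the 48Q log2 fold change was -1.13. Slc38a1 (SNAT1, chr15:96571418-96642913, minus strand), a main glutamine uptake route, was at 352 and 383 CPM in WT, 165 and 202 CPM in 12Q, and 224 and 225 CPM in 48Q, and all tumor libraries lay below both WT libraries. Against WT, Slc38a1 had a log2 fold change of -1.0 ± 0.24 (SE, edgeR adjusted p = 0.0318) in 12Q. In 48Q, Slc38a1 had one of -0.71 ± 0.24 (SE, edgeR adjusted p = 0.135). Slc38a1 lost the 12Q call when 12Q replicate 1, 48Q replicate 1, 48Q replicate 2, WT replicate 1 or WT replicate 2 was left out (adjusted p from 0.051 to 0.126), on library totals (0.174) and with only the compared groups in the fit (0.112). Its neighbour on chromosome 15, Slc38a2 (SNAT2, chr15:96687392-96699698, minus strand), which amino acid shortage is known to induce, was at 315 and 213 CPM in WT, 273 and 312 CPM in 12Q, and 373 and 314 CPM in 48Q, with overlapping groups in 12Q and WT. Against WT, Slc38a2 had a log2 fold change of 0.15 ± 0.29 (SE, edgeR adjusted p = 0.739) in 12Q. In 48Q, Slc38a2 had one of 0.38 ± 0.29 (SE, edgeR adjusted p = 0.452), and the 12Q value was -0.11 without WT replicate 2. On library totals the 48Q value of Slc38a2 was 1.09 (edgeR adjusted p = 0.0457). Slc38a9, the lysosomal arginine sensor of mTORC1, was at 9.65 and 20.8 CPM in WT, 23.2 and 18.5 CPM in 12Q, and 30.1 and 32.5 CPM in 48Q, and Slc38a7, a lysosomal glutamine exporter, stayed between 24.5 and 32.5 CPM in all 6 libraries. Slc38a6 was at 3.76 and 17.9 CPM in WT, 4.4 and 4.77 CPM in 12Q, and 11.9 and 13.3 CPM in 48Q. The rare Slc38a4 was at 0.73 and 0.707 CPM in WT, 0.074 and 0.526 CPM in 12Q, and 4.31 and 1.6 CPM in 48Q, and Slc38a11 at 0 and 0.0442 CPM in WT, 0 and 0.0619 CPM in 12Q, and 0.753 and 0.656 CPM in 48Q, both highest in the 48Q libraries without passing the test.

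The proton-coupled transporters were represented by 2 tested genes. Slc36a4 (PAT4, chr9:15709769-15738789, plus strand), a carrier of proline and tryptophan, was lower in 12Q than in WT, at 30.6 and 24.5 CPM in WT, 5.59 and 12.1 CPM in 12Q, and 14.4 and 15.1 CPM in 48Q. The 48Q libraries lay between the other groups, and no groups overlapped. Against WT, Slc36a4 had a log2 fold change of -1.63 ± 0.42 (SE, edgeR adjusted p = 0.0387) in 12Q. In 48Q, Slc36a4 had one of -0.90 ± 0.41 (SE, edgeR adjusted p = 0.235). Slc36a4 lost the 12Q call when 12Q replicate 1, 48Q replicate 1, 48Q replicate 2, WT replicate 1 or WT replicate 2 was left out (adjusted p from 0.0647 to 0.115), on library totals (0.113) and with only the compared groups in the fit (0.082), and the log2 fold change was -2.30 without 12Q replicate 2. Slc36a1 (PAT1, chr11:55204340-55236330, plus strand), which exports small neutral amino acids from lysosomes and takes part in mTORC1 activation, was at 12 and 35.8 CPM in WT, 11.2 and 13.2 CPM in 12Q, and 47.2 and 55.98 CPM in 48Q. Its 48Q libraries were above the other 4, and the WT libraries differed from each other. Against WT, Slc36a1 had a log2 fold change of 1.11 ± 0.50 (SE, edgeR adjusted p = 0.227) in 48Q. Relative to 48Q, Slc36a1 had one of -2.08 ± 0.51 (SE, edgeR adjusted p = 0.0714) in 12Q, neither past the threshold. Without WT replicate 2 the first was 2.09 (edgeR adjusted p = 0.0453), and the second passed without either WT library (0.0358 and 0.0364) and in the DESeq2 Wald test (0.0018).

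In the Slc6 family, which uses the sodium and chloride gradients, Slc6a14 had the largest increase among the called transporter genes in 12Q against WT. Slc6a14 (ATB0,+, chrX:21714900-21742357, plus strand), which concentrates most neutral and cationic amino acids, was measured at 0.313 and 1.02 CPM in WT, 6.84 and 89.04 CPM in 12Q, and 2.74 and 3.82 CPM in 48Q. The 3 groups did not overlap, but within 12Q replicate 2 stood far above replicate 1. Against WT, Slc6a14 had a log2 fold change of 6.14 ± 1.34 (SE, edgeR adjusted p = 0.025) in 12Q. In 48Q, Slc6a14 had one of 2.27 ± 1.20 (SE, edgeR adjusted p = 0.29). Relative to 48Q, Slc6a14 had one of 3.87 ± 1.17 (SE, edgeR adjusted p = 0.109) in 12Q. The first call was lost when 12Q replicate 2, WT replicate 1 or WT replicate 2 was left out (adjusted p from 0.0545 to 0.117). Without 12Q replicate 2 its log2 fold change was 3.34, without 12Q replicate 1 it was 7.08, and without WT replicate 2 it was 7.23. Between the tumors the value was 4.79 without 12Q replicate 1 (edgeR adjusted p = 0.0497). Slc6a9 (GlyT1), the glycine transporter, was at 17.8 and 21.2 CPM in WT, 25.1 and 29.99 CPM in 12Q, and 40.7 and 40.2 CPM in 48Q, with both 48Q libraries highest and a log2 fold change of 1.05 ± 0.25 (SE, edgeR adjusted p = 0.0636) in 48Q against WT. It passed there in the DESeq2 Wald test (adjusted p = 0.0049) and on library totals (0.0221, with a log2 fold change of 1.74). Slc6a15 (B0AT2, chr10:103367808-103419379, plus strand), a branched-chain amino acid transporter known from brain, had 0 counts in both 12Q libraries and was at 0.422 and 0.171 CPM in 48Q and 0.209 and 0.929 CPM in WT. It was at least 5.58-fold lower in 12Q than in WT, with 3 counts set in each 12Q library (edgeR adjusted p = 0.0429). Slc6a15 lost this call without any 1 of the 6 libraries (adjusted p from 0.0539 to 0.126), on library totals (0.0522) and with a replicate block (0.0708), and the bound was 9.08-fold without WT replicate 1 and 2.05-fold without WT replicate 2. Slc6a17, a vesicular transporter of neurons, was at 0.0522 and 0.398 CPM in WT, 0.074 and 0.186 CPM in 12Q, and 0.723 and 0.827 CPM in 48Q.

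Slc6a6 (TauT, chr6:91684067-91759063, plus strand), the taurine transporter, was higher in 12Q tumors than in WT, at 21.9 and 53.3 CPM in WT, 96.3 and 116 CPM in 12Q, and 109 and 103 CPM in 48Q. All tumor libraries were above both WT libraries, and the tumor groups lay close together. Against WT, Slc6a6 had a log2 fold change of 1.5 ± 0.42 (SE, edgeR adjusted p = 0.0478) in 12Q. In 48Q, Slc6a6 had one of 1.5 ± 0.42 (SE, edgeR adjusted p = 0.0902). Slc6a6 lost the 12Q call when 12Q replicate 1, 12Q replicate 2, 48Q replicate 1, 48Q replicate 2 or WT replicate 1 was left out (adjusted p from 0.0539 to 0.138) and with only the compared groups in the fit (0.09). Without WT replicate 2 its log2 fold change was 2.27 in both, with adjusted p in edgeR of 0.0189 in 12Q and 0.0373 in 48Q, and on library totals the 48Q value was 2.15 (0.0417). Slc6a8, the creatine transporter, was at 46.5 and 54.8 CPM in WT, 54.6 and 53.6 CPM in 12Q, and 60.6 and 50.4 CPM in 48Q, and its groups overlapped.

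The monoamine transporters of the Slc6 family carry no amino acids but share its fold, and both tested genes were lower in 12Q than in WT. Slc6a2 (NET, chr8:92961047-93001667, plus strand), which takes noradrenaline back into sympathetic nerve endings, was measured at 7.93 and 17.6 CPM in WT, 0.185 and 0.186 CPM in 12Q, and 7.95 and 32.9 CPM in 48Q. The 12Q libraries were far below the other 4, and 48Q and WT overlapped. Against WT, Slc6a2 had a log2 fold change of -6.07 ± 0.94 (SE, edgeR adjusted p = 0.0099) in 12Q. In 48Q, Slc6a2 had one of 0.68 ± 0.71 (SE, edgeR adjusted p = 0.588). Relative to 48Q, Slc6a2 had one of -6.75 ± 0.96 (SE, edgeR adjusted p = 0.0255) in 12Q. The call against WT was lost when 12Q replicate 2 was left out (adjusted p = 0.0584) and that against 48Q when 12Q replicate 1 or 12Q replicate 2 was left out (adjusted p from 0.0897 to 0.0967). Without WT replicate 2 the value against WT was -5.39, and the value against 48Q was -7.43 without 48Q replicate 1 and -5.38 without 48Q replicate 2. The sign in 48Q against WT rested on 48Q replicate 2, without which the log2 fold change was -0.69. Slc6a4 (SERT, chr11:76998597-77032343, plus strand), the serotonin transporter, was at 2.35 and 3.14 CPM in WT, 0.148 and 0.124 CPM in 12Q, and 1.48 and 1.03 CPM in 48Q, and no groups overlapped. Against WT, Slc6a4 had a log2 fold change of -4.30 ± 0.65 (SE, edgeR adjusted p = 0.00951) in 12Q. In 48Q, Slc6a4 had one of -1.13 ± 0.55 (SE, edgeR adjusted p = 0.254). Relative to 48Q, Slc6a4 had one of -3.17 ± 0.63 (SE, edgeR adjusted p = 0.0503) in 12Q. The 12Q call of Slc6a4 held in all 12 alternatives. Smooth muscle markers (7 of 7) and basal markers (5 of 5) were lower in 12Q than in WT as well, and 1 of 5 tested neuronal and glial markers was. Markers of neurons and glia summed to 8.82 and 18.4 CPM in WT, 9.55 and 10.4 CPM in 12Q, and 19.5 and 16.7 CPM in 48Q, with Snap25 at 0 in 12Q and WT and Sox10 at 0 in 12Q. The part of these markers in the lower Slc6a2 and Slc6a4 was not tested.

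**Figure D3:**
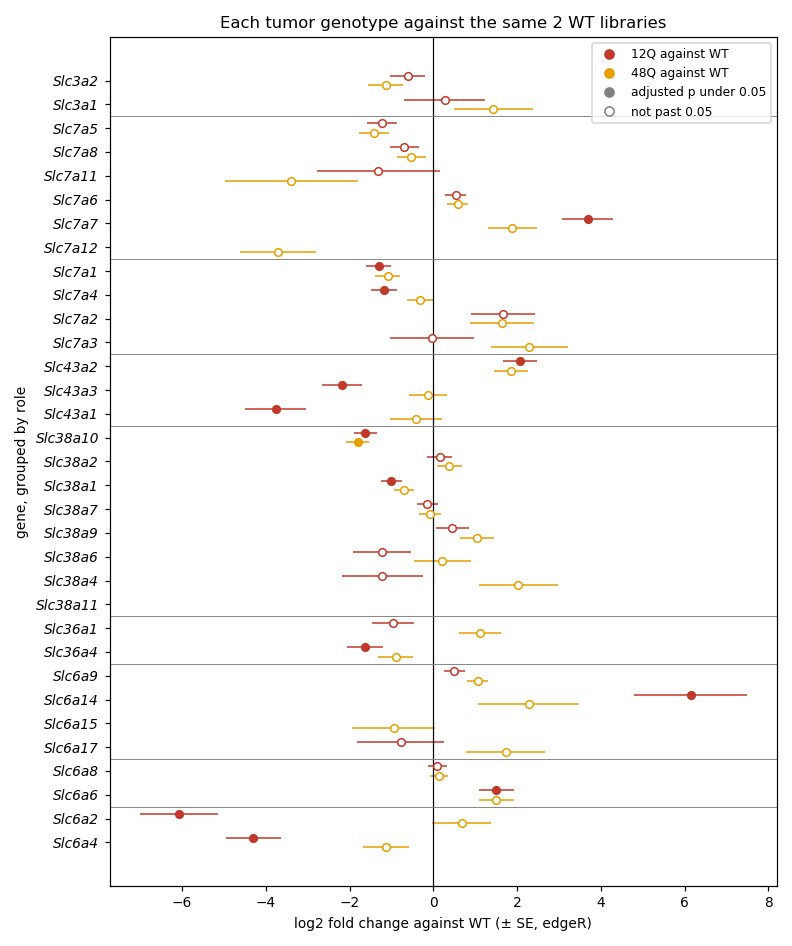
Log2 fold change against WT (± SE, edgeR) of the tested transporter genes, 12Q in red and 48Q in orange, with filled points for adjusted p under 0.05. Slc38a11 and the 12Q values of Slc7a12 and Slc6a15 are not drawn because a group held at most 3 counts. Slc6a14 lies farthest to the right in 12Q (6.14) and Slc6a2 farthest to the left (-6.07).

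**Figure D4:**
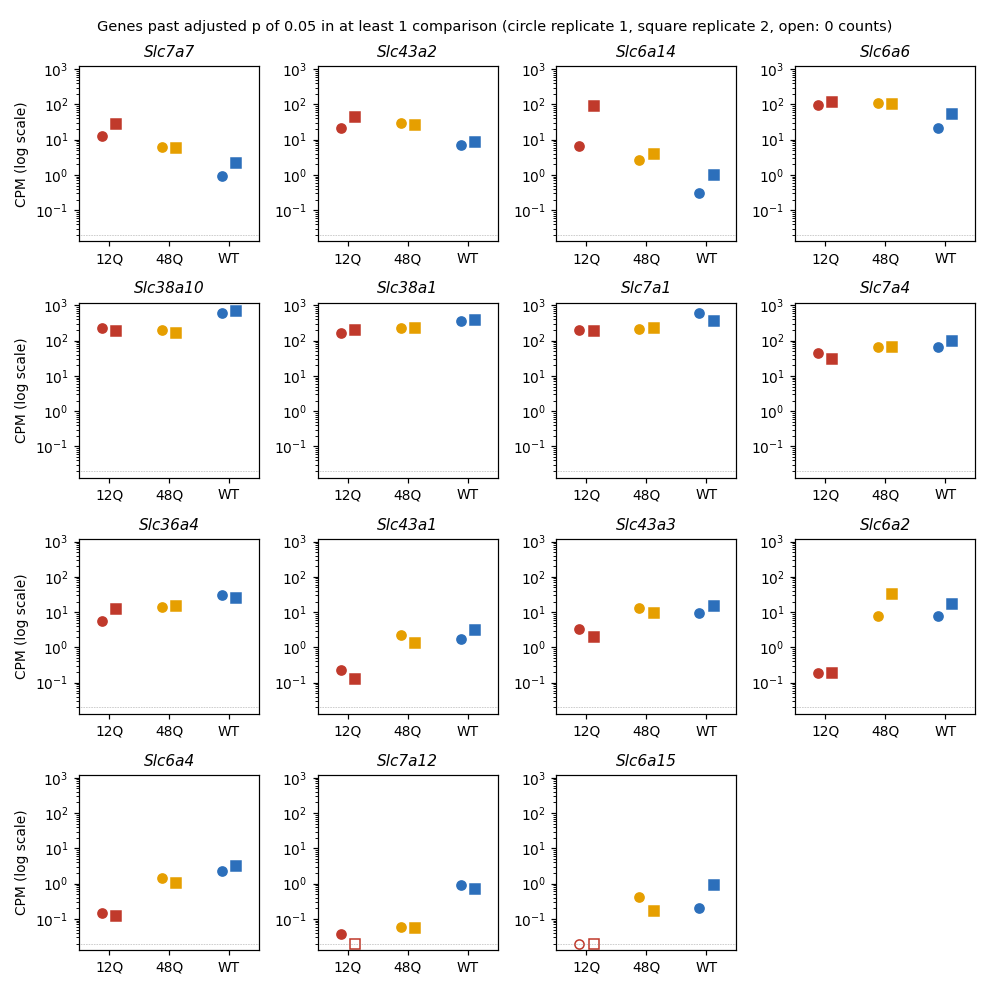
CPM in each library (log axis, the same in all panels) of the 15 transporter genes past the threshold in at least 1 comparison; circles are replicate 1, squares replicate 2, and open symbols on the dotted line are libraries with 0 counts. Slc38a10 lies below WT (595 and 673 CPM) in all 4 tumor libraries.

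Between the tumor genotypes, most of the tested genes lay lower in 12Q, though 1 of the 34 passed the test. Both 12Q libraries were below both 48Q libraries for 22 of the 34 tested genes (64.7%) and above them for 4 (11.8%), where over all tested genes the shares were 35.5% and 31.3%. The 4 genes above were Slc7a7, Slc6a14, Slc7a11 and the heavy chain Slc3a2. The 22 below included Slc7a6os, which is no transporter. The others came from every role group but that of the taurine and creatine transporters, among them Slc7a1, Slc38a1, Slc38a2, Slc36a1, Slc36a4, Slc43a1, Slc43a3 and Slc6a9. Of the 22, Slc38a11, Slc6a17, Slc7a3 and Slc3a1 were counted mainly in 48Q and so entered the test through that group. Slc38a4 was counted mainly in 48Q as well, but both WT libraries also reached the minimum count of 10. Slc6a15 reached that minimum in 48Q replicate 1 and WT replicate 2 alone, so its entry rested partly on 48Q. The count of 22 is therefore partly shaped by the filter on low counts. Slc6a2 alone passed, so for the other genes a difference between the tumors was not shown, and with 2 libraries a group no equality was shown either. Basal, smooth muscle and fibroblast markers were also lower in 12Q than in 48Q (4 of 5, 4 of 7 and 3 of 7), beside 3.16% of all genes. Seminal vesicle markers were lower in 12Q as well (3 of 5). They summed to 24.9 and 42.0 CPM in 48Q, 1.52 and 2.35 CPM in 12Q, and 0.730 and 0.884 CPM in WT. The part of these 4 marker lists was not tested.

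Compared per kilobase of exon, Slc7a5 and its heavy chain Slc3a2 were among the highest transporter genes. Over the 6 libraries the mean was 68.4 CPM per kilobase for Slc7a5, 61.8 for Slc3a2, 52.98 for Slc38a10, 33.96 for Slc38a2 and 26.03 for Slc7a1. These were the top 5 also with the longest transcript or the authors' gene length in place of the union of exons, but their order among themselves changed with the length used. Slc7a8 (18.4), Slc38a1 (15) and Slc7a4 (14.97) followed. In WT the mean was 114 CPM per kilobase for Slc7a5, 87.96 for Slc3a2, 98.7 for Slc38a10 and 29.9 for Slc38a2. In 12Q the mean was 48.8 CPM per kilobase for Slc7a5, 57.5 for Slc3a2, 32.04 for Slc38a10 and 33.1 for Slc38a2. In 48Q the mean was 42.6 CPM per kilobase for Slc7a5, 39.8 for Slc3a2, 28.2 for Slc38a10 and 38.9 for Slc38a2. Slc7a5 was the highest of these in WT and 48Q and Slc3a2 in 12Q, an order that was not tested. Summed per role, SNAT genes were at 1301 and 1340.1 CPM in WT, 721 and 746 CPM in 12Q, and 865 and 782 CPM in 48Q. On the TMM scale, all tumor libraries were thus lower than both WT libraries. Slc38a10 alone held 595 and 673 CPM of the WT sums, while Slc38a2 overlapped between WT and each tumor group. The cationic transporters summed to 659 and 480.1 CPM in WT, 247 and 254 CPM in 12Q, and 307 and 316 CPM in 48Q, with the same order. Neither order was examined on library totals. Light chains summed to 1224 and 472 CPM in WT, 374 and 469 CPM in 12Q, and 325 and 292 CPM in 48Q, where WT replicate 1 stood alone at the top through Slc7a5 and Slc7a11.

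Among genes that respond to amino acid shortage, more calls were lower than higher in the tumors. Of 33 tested genes of the integrated stress response and ATF4 targets, 2 were higher and 8 lower in 12Q than in WT, with a median log2 fold change of -0.58, beside 11.2% higher and 11.2% lower among all genes. In 48Q, 6 were lower than in WT, with a median of -1.30, beside 1.23% lower among all genes. The lower genes were led in both by Aldh1l2, a mitochondrial folate enzyme, at 69.01 and 60.1 CPM in WT, 1.29 and 2.72 CPM in 12Q, and 2.14 and 1.65 CPM in 48Q, with a log2 fold change of -5.0 (edgeR adjusted p = 0.00348) in 12Q and -5.09 (edgeR adjusted p = 0.00991) in 48Q against WT. Mthfd2, another folate enzyme of mitochondria, had a log2 fold change of -3.07 (edgeR adjusted p = 0.00928) in 12Q and -2.73 (edgeR adjusted p = 0.0313) in 48Q. For Asns it was -2.74 (edgeR adjusted p = 0.0103) in 12Q and -3.44 (edgeR adjusted p = 0.0186) in 48Q. Eif2ak4, which encodes the amino acid sensor Gcn2, was at 60.3 and 48.4 CPM in WT, 12.5 and 14.2 CPM in 12Q, and 31.5 and 28.6 CPM in 48Q, with a log2 fold change of -2.03 (edgeR adjusted p = 0.00605) in 12Q against WT. In 48Q, the glutathione-degrading enzyme Chac1 was lower as well, with a log2 fold change of -3.96 (edgeR adjusted p = 0.0362). The 2 genes higher in 12Q, named after their values were seen, were Cebpb, a transcription factor of inflammation and stress, with a log2 fold change of 2.33 (edgeR adjusted p = 0.0115), and Nupr1 with 4.56 (edgeR adjusted p = 0.037). Nupr1 was at 1.41 and 2.83 CPM in WT, 7.51 and 93.1 CPM in 12Q, and 23.3 and 21.6 CPM in 48Q, so 12Q replicate 2 stood far above replicate 1, and its log2 fold change was 1.82 without 12Q replicate 2 (edgeR adjusted p = 0.0705). The Nupr1 call was also lost without either WT library (adjusted p from 0.12 to 0.16). The 12Q calls of Mthfd2 and Asns were lost without 12Q replicate 2 (adjusted p from 0.0509 to 0.0545), and without WT replicate 1 their log2 fold changes were -2.26 and -2.03. The 48Q calls of Mthfd2, Asns and Chac1 were lost when 48Q replicate 1, 48Q replicate 2 or WT replicate 1 was left out (adjusted p from 0.0715 to 0.192), and that of Aldh1l2 when WT replicate 1 was left out (adjusted p = 0.08). Without WT replicate 1, the 48Q log2 fold change was -1.93 for Mthfd2, -2.74 for Asns and -2.76 for Chac1. The summed level of the list was 7844 and 3944 CPM in WT, 3736 and 2836 CPM in 12Q, and 2276 and 2297 CPM in 48Q, with WT replicate 1 highest. Without WT replicate 1 the counts were 2 higher and 5 lower in 12Q (median -0.32) and 0 in either direction in 48Q by edgeR (16 at an unadjusted p under 0.05, median -0.69). Without WT replicate 2 they were 1 higher and 15 lower in 12Q and 14 lower in 48Q. The lower count in 12Q was 2 without 12Q replicate 2 and 5 without 12Q replicate 1, 48Q replicate 1 or 48Q replicate 2, and that in 48Q was 1 without either 48Q library and 4 without either 12Q library. The DESeq2 Wald test called 14 lower in 12Q and 19 lower in 48Q. In 48Q against WT it also called more of all genes than edgeR did. Its counts for this list and those below are therefore not comparable with the edgeR shares.

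Of 35 tested genes through which amino acids signal to mTORC1, 4 were lower in 12Q than in WT, a share close to the 11.2% lower among all genes, with a median log2 fold change of -0.12. In 48Q, 3 were lower than in WT, beside 1.23% of all genes, with a median of -0.19. The 48Q count was 0 in edgeR without 48Q replicate 1, 48Q replicate 2 or WT replicate 1 (4, 4 and 5 at an unadjusted p under 0.05), 1 without WT replicate 2 and 5 without either 12Q library or in the DESeq2 Wald test. In 12Q the count was 3 to 6 when 1 library was left out (6 without 12Q replicate 1), and 7 in the DESeq2 Wald test. On library totals 4 were higher and 3 lower in 12Q, with medians of 0.37 in 12Q and 0.51 in 48Q, where those of all genes were 0.48 and 0.71. Rragd, a Rag GTPase that docks mTORC1 at the lysosome, was at 72.1 and 59.9 CPM in WT, 1.92 and 2.14 CPM in 12Q, and 18.2 and 8.53 CPM in 48Q. The 3 groups did not overlap, and its log2 fold change was -5.02 (edgeR adjusted p = 0.00353) in 12Q against WT, -2.30 (edgeR adjusted p = 0.0359) in 48Q against WT and -2.72 (edgeR adjusted p = 0.0304) in 12Q relative to 48Q. Depdc5, a subunit of the GATOR1 complex that restrains mTORC1, was at 469.8 and 328 CPM in WT, 32.7 and 34.5 CPM in 12Q, and 64.6 and 42.8 CPM in 48Q, with a log2 fold change of -3.57 (edgeR adjusted p = 0.00353) in 12Q and -2.89 (edgeR adjusted p = 0.0136) in 48Q against WT. Deptor, an inhibitor within the mTOR complexes, had log2 fold changes of -2.03 (edgeR adjusted p = 0.00869) and -1.96 (edgeR adjusted p = 0.027), in 12Q and 48Q, and Lamtor2, a Ragulator subunit, one of -1.08 (edgeR adjusted p = 0.0458) in 12Q. In 48Q against WT, the calls of Rragd, Depdc5 and Deptor were lost when 48Q replicate 1, 48Q replicate 2 or WT replicate 1 was left out (adjusted p from 0.0515 to 0.208), and those of Rragd and Deptor also without WT replicate 2 (adjusted p from 0.0538 to 0.0613). Without 48Q replicate 1, the log2 fold change of Rragd was -2.96 in 48Q against WT and -2.06 in 12Q relative to 48Q. Between the tumors, the Rragd call was lost when 12Q replicate 1, 12Q replicate 2 or 48Q replicate 1 was left out (adjusted p from 0.0864 to 0.121). The Lamtor2 call was lost without any library but 12Q replicate 1 (adjusted p from 0.0853 to 0.11).

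Among 22 tested enzymes that use branched-chain amino acids, arginine, tryptophan and polyamines, 6 were higher and 4 lower in 12Q than in WT, beside 11.2% each way among all genes, with a median log2 fold change of -0.08. Without WT replicate 2 the counts were 2 higher and 1 lower, without WT replicate 1 they were 4 and 1, without either 48Q library 4 and 2, without 12Q replicate 2 they were 5 and 2, and without 12Q replicate 1 they were 5 and 6. Arg1 (arginase) was at 5.63 and 4.2 CPM in WT, 45.8 and 96.4 CPM in 12Q, and 17.4 and 18.97 CPM in 48Q, with all tumor libraries above WT and a log2 fold change of 3.85 (edgeR adjusted p = 0.00503) in 12Q against WT. Nos2, the inducible nitric oxide synthase, was at 0 and 0.0442 CPM in WT, 4.29 and 52.5 CPM in 12Q, and 4.28 and 4.02 CPM in 48Q. With 1 count in WT, its 12Q to WT ratio was 1277 (exact 95% interval 229 to 50457, counting error only, edgeR adjusted p = 0.0132), and 12Q replicate 2 stood far above replicate 1, as it did for Slc6a14. This call was lost without either WT library (adjusted p from 0.0695 to 0.0736). The arginine-synthesising enzyme Ass1 had a log2 fold change of 2.41 (edgeR adjusted p = 0.0173) in 12Q, which was 2.10 without 12Q replicate 2 (edgeR adjusted p = 0.0625) and 3.01 without WT replicate 2. Without 12Q replicate 2, that of Arg1 was 3.22. The lower genes were led by Sms, the spermine synthase, at 38.2 and 32.1 CPM in WT, 3.88 and 3.68 CPM in 12Q, and 10.5 and 7.59 CPM in 48Q, with a log2 fold change of -3.22 (edgeR adjusted p = 0.00416) in 12Q and -1.96 (edgeR adjusted p = 0.0296) in 48Q against WT, the 1 gene of this list past the threshold in 48Q (1.23% of all genes were lower). The 48Q call of Sms was lost when any 48Q or WT library was left out (adjusted p from 0.0512 to 0.245). Sat1, the acetyltransferase that opens polyamine breakdown, was at 95.4 and 87.1 CPM in WT, 197 and 166 CPM in 12Q, and 72.7 and 78.2 CPM in 48Q. Its log2 fold change in 12Q relative to 48Q was 1.27 (edgeR adjusted p = 0.0365). It was the 1 gene of the 22 that passed between the tumors, beside 1.01% higher and 3.16% lower among all genes. This Sat1 call was lost when any 1 of the 4 tumor libraries was left out (adjusted p from 0.0687 to 0.333). Macrophage markers were higher in both tumor groups than in WT (6 of 7 in each). Neutrophil markers were higher as well (3 of 4 in 12Q and 2 of 4 in 48Q) and summed to 0.626 and 0.221 CPM in WT, 8.62 and 33.2 CPM in 12Q, and 13.2 and 13.7 CPM in 48Q, highest in 12Q replicate 2 like Nos2, Nupr1 and Slc6a14, with S100a8 at 0 in WT. The part of either marker list in the results for Arg1, Nos2, Nupr1 and Slc6a14 was not tested.

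The remaining 23 matches were below the filter on low counts, with at most 63 counts over the 6 libraries together and at most 46 in a single library (both Slc38a3). Of them, 21 are transporters: Slc7a9, Slc7a10, Slc7a13, Slc7a14, Slc7a15, Slc36a2, Slc36a3, Slc38a3, Slc38a5, Slc38a8, Slc6a3, Slc6a5, Slc6a7, Slc6a11, Slc6a12, Slc6a13, Slc6a18, Slc6a19, Slc6a20a, Slc6a20b and Slc6a21. Slc7a9, Slc38a8, Slc6a5, Slc6a11, Slc6a20b and Slc6a21 had 0 counts in every library, which allows up to 0.0856 to 0.156 CPM in each. Many of these are known from kidney, intestine or nervous tissue, such as the intestinal and renal neutral amino acid transporter Slc6a19 and the glycine transporter of neurons Slc6a5. Slc6a3, the dopamine transporter, had 6 counts in all, so of the monoamine transporters in the table, Slc6a2 and Slc6a4 were the ones tested.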

How the data were processed

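RNA was sequenced in 6 libraries, 2 per group. The table made by the authors holds whole-number read counts per gene, with no normalization. The submitters' processing notes name TopHat2 2.0.14, HTSeq 0.6.0 and the mm10 build. No source used here gives the gene annotation or the strand setting, so genes whose exons overlap an opposite-strand gene are uncertain. Among the named genes these are Slc38a10, Slc38a9, Slc43a2, Slc6a6 and Slc7a2 (predicted genes), Slc3a1, Slc6a9, Slc7a4 and Slc7a7. Coordinates are those of GENCODE M21 on mm10 (1-based), where all 58 symbols were found. Of these, 1 is not reported here, and counts of transporter genes leave it out, while fits and adjusted p-values cover the whole table. Promoter windows are from RefSeq (GRCm38.p6), searched on both strands.

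Genes were kept by filterByExpr (minimum count 10, minimum total 15) and tested with edgeR 4.0.16 in R 4.3.3 (quasi-likelihood F test, TMM, 1 fit of the 3 groups, 3 residual degrees of freedom, common dispersion 0.143, coefficient of variation 0.378). P-values were adjusted over all 15050 genes, with a threshold of 0.05. The fit was also run on counts simulated with the common dispersion for every gene and 200 genes changed. The spread of single genes differs in the data, so that run does not measure how reliable the calls are. Where a group was at 0, the fold is a bound with 3 counts per library, and bounds and intervals cover counting error only. The libraries of a group differed by more than sampling noise (chi-square over its degrees of freedom was 263 in 12Q, 40.1 in 48Q and 183 in WT), so none was counted as a duplicate. Levels per kilobase use the union of exons.

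Alternatives were DESeq2 size factors, library totals, no filter, DESeq2 1.42.0, a replicate block, fits of only the compared groups, leaving out each library, and other gene lengths (the authors' length was chosen after seeing the data). The gene families, lists and markers were chosen with earlier results of these data known. Named genes are those past the threshold in a comparison, 9 well-known transporters, the 2 highest per role and, in each pathway list, up to 4 with the smallest adjusted p. Tested genes outside this rule are described by their levels.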

Additional observations from a re-analysis of the deposited data

Results flagged for a closer look

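Slc6a2, the noradrenaline transporter, differed between the tumor genotypes in its difference from WT, with a log2 fold change of -6.75 ± 0.96 (SE) in 12Q against 48Q (edgeR adjusted p = 0.0255).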

How the results depend on the processing

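For single transporter genes and comparisons, 433 recomputed values kept their direction and their side of the threshold, 64 lost a call, 37 gained one and 5 changed sign. The changes of sign came when 1 library was left out. The range over the libraries left out was -2.29 to 3.68 for Slc7a11 in 12Q and -4.49 to 1.59 in 48Q against WT (positive without WT replicate 1). It was -1.10 to 0.11 for Slc3a2 in 12Q against WT (positive without WT replicate 1), -0.11 to 0.46 for Slc38a2 in 12Q against WT (negative without WT replicate 2) and -0.69 to 1.36 for Slc6a2 in 48Q against WT (negative without 48Q replicate 2), with no sign-changed value past the threshold.

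In 12Q against WT, leaving out 1 library gave 6 to 11 transporter genes and 1861 to 2934 of all genes (from 15 and 3370), and a fit of only the compared groups gave 8 and 1887. In 48Q against WT, leaving out 1 library gave 0 to 5 transporter genes and 0 to 1215 of all genes (from 1 and 780), where edgeR had 2972 of all genes at an unadjusted p under 0.05 without WT replicate 1. Library totals gave 7 and 2004, the DESeq2 Wald test 8 and 2540, only the compared groups 4 transporter genes, and no filter on low counts or a replicate block 2. In 12Q against 48Q, leaving out 1 library gave 0 to 2 transporter genes and 47 to 866 of all genes (from 1 and 627), the DESeq2 Wald test gave 8 and 2481, only the compared groups 3 transporter genes, and DESeq2 size factors in edgeR 2. Leaving out a library reduces the residual degrees of freedom, and the lone library of a group is then assumed to vary like the others. The cause of the other changes was not tested.

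Replicate numbers are shared between groups, and the labels state no pairing. Deviations of same-numbered libraries correlated at 0.0252 (12Q and 48Q), 0.134 (12Q and WT) and -0.103 (48Q and WT). Such a correlation over all tested genes cannot decide whether these libraries share more than a number. With a replicate block, 13, 2 and 1 transporter genes and 3066, 854 and 605 of all genes passed in the 3 comparisons. Depth limits genes near 3 counts per library, here Slc7a12, Slc6a15, Slc43a1, Slc6a2 and Slc6a4, which had 0 to 6 counts in each 12Q library.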
